A study of Mus musculus with 4 samples.

Results

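The genes described here encode proteins of the acellular gels of the inner ear and of otoconia, and they were chosen by gene symbol. All 9 were among the 24346 symbols measured: Tecta, Tectb, Zpld1, Otog, Otogl, Ceacam16, Otoa, Oc90 and Otol1. RNA sequencing was done on cells of the mouse inner ear grown as primary cultures, with 2 libraries labelled as vestibular cells and 2 labelled as cochlear cells. The labels give no strain, age, genotype, treatment or time in culture for either group, and they do not say whether libraries 1 and 2 of a group came from separate animals or cultures. Every p-value below therefore measures the spread between these libraries only, which may be technical.

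The sensory patches of the inner ear are each covered by an extracellular gel that couples movement to the hair bundles. In the cochlea it is the tectorial membrane, in the utricle and saccule the otolithic membrane with its load of calcium carbonate crystals, the otoconia, and in the semicircular canals the cupula. The gels are secreted by non-sensory epithelial cells, largely during development, and mutations in several of these genes cause inherited deafness or balance defects.

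Levels are given as FPKM, fragments scaled by transcript length and by library size, as deposited. FPKM is a level per length, so values can be set side by side between genes. The summed FPKM of the 9 genes reached 33.6 in vestibular library 1, 18.8 in vestibular library 2, 74.2 in cochlear library 1 and 171 in cochlear library 2. Otoa held the highest rank of the 9 in vestibular 1, cochlear 1 and cochlear 2, with 28.0%, 39.1% and 75.3% of that sum, and in vestibular 2 the highest was Otol1 with 30.9%. The next in rank differed between libraries: Otol1 (27.0%) and Oc90 (23.1%) in vestibular 1, Otoa (19.2%) and Otog (19.1%) in vestibular 2, Ceacam16 (35.1%) and Otol1 (18.3%) in cochlear 1, and Otol1 (19.1%) and Ceacam16 (4.48%) in cochlear 2. Tecta and Tectb, the tectorin genes, each made up at most 5.42% of the sum in any library.

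**Figure D1:**
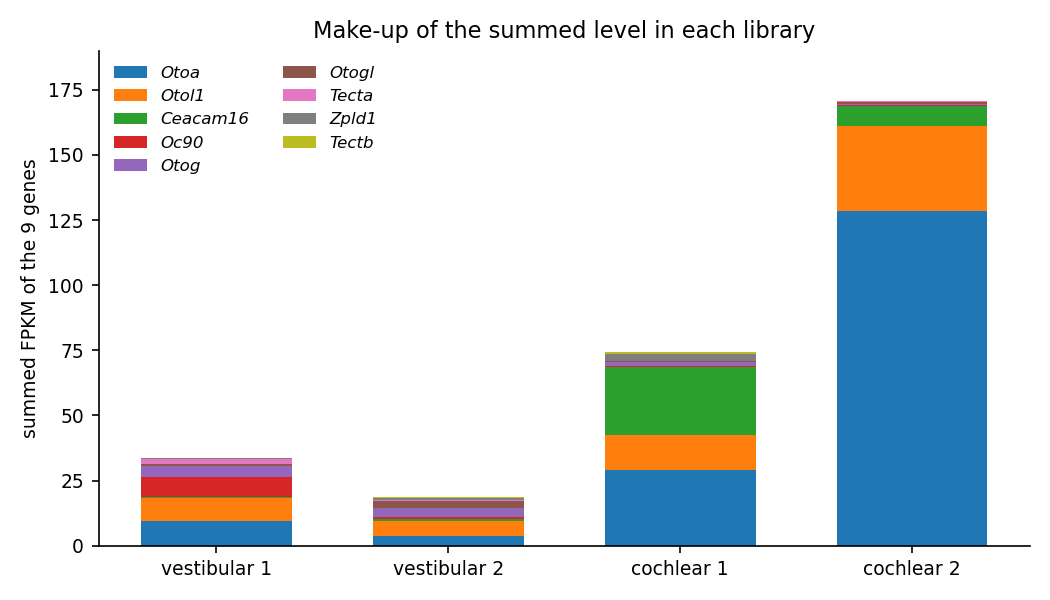
Bars show the summed FPKM of the 9 genes in each of the 4 libraries, stacked by gene, on a linear axis from 0. The cochlear 2 bar reaches 171 and is mostly Otoa, the cochlear 1 bar reaches 74.2 with Otoa and Ceacam16 of similar height, and the vestibular bars reach 33.6 and 18.8.

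The number of fragments behind these values can be inferred in part. Among genes under 0.3 FPKM, ratios of values between libraries clustered at ratios of small whole numbers (83.8% to 86.3% of such genes within a tolerance of 0.002), which placed the relative depth of vestibular 1, vestibular 2, cochlear 1 and cochlear 2 at 1, 1.11, 1.13 and 1.16. With those depths, the values of each of the 9 genes could be written as whole numbers of fragments within 0.03. These fragment numbers are inferred, the ones for Otoa less surely because its numbers are large, and the intervals given with them cover counting error only. Otol1 and Otoa rest on at least 121 inferred fragments in every library. Tectb rests on 28 in all 4 libraries together, Zpld1 on 97, Oc90 on 137 and Tecta on 230.

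**Figure D2:**
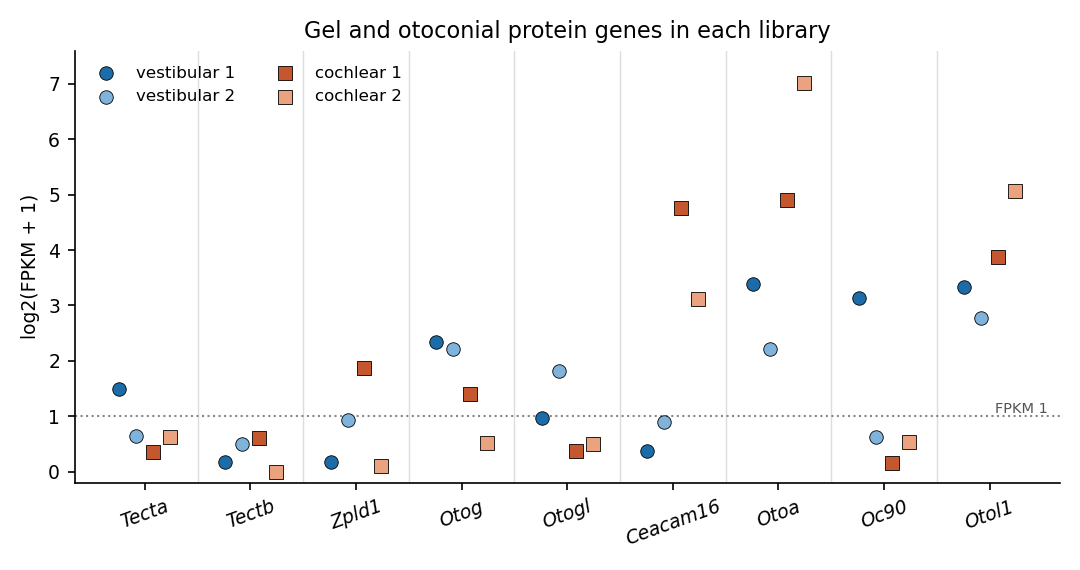
Points show log2(FPKM + 1) of each gene in each library, circles for vestibular and squares for cochlear, with a dotted line at FPKM 1. Otoa, Otol1 and Ceacam16 have both squares above both circles, Otog and Otogl have both circles above both squares, and Oc90 has 1 circle far above the other 3 points.

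Groups were compared with limma on log2(FPKM + 1) over the 13200 genes that averaged 1 FPKM or more, with Benjamini-Hochberg adjustment over all of them and a threshold of 0.05. A difference is the vestibular minus the cochlear mean on that log scale, where the change of low genes is understated. Of the 9 genes 6 reached that mean (Otog, Otogl, Ceacam16, Otoa, Oc90 and Otol1) and 3 did not (Tecta, Tectb and Zpld1). None of the 6 passed the threshold, against 4 genes or 0.0303% of all genes tested. Limma gave 3 of the 6 an unadjusted p under 0.05, where 18.2% of all genes tested had one: Ceacam16 and Otoa were higher in cochlear cultures (10.6% of all genes in that direction) and Otog higher in vestibular cultures (7.61% in that direction). With 2 libraries a group the smallest exact permutation p is 0.333 (2-sided), so a single gene cannot be called by permutation. In these bulk cultures fewer cells of a type and less RNA per cell cannot be told apart.

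Both libraries of one group lay above both of the other in 7 of the 9 genes. Over all genes above 0 in at least 1 library the groups did not overlap in 49.6%, and over the genes tested in 55.3%. Cochlear libraries were above vestibular ones in 28.4% of the genes tested and vestibular above cochlear in 26.9%. Among the 9, Otoa, Otol1 and Ceacam16 were of the first kind, and Otog, Otogl, Oc90 and Tecta of the second. Tectb and Zpld1 overlapped.

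Promoter sequences of RefSeq on GRCm38.p6, the assembly that mm10 names, were at hand for 6 of the 9 genes. Those of Otoa and Otol1, which stood higher in the cochlear libraries, and of Otog, which stood higher in the vestibular libraries, are shown because these 3 genes differ in direction and rest on the most fragments. Each window runs 5′ to 3′ on the gene's plus strand from 250 bases before the start site to 50 after it, and lies at chr7:121083174-121083473 for Otoa, chr3:70007363-70007662 for Otol1 and chr7:46240737-46241036 for Otog. Capitals mark matches, on both strands, to GATAA (the core read by GATA factors), ACAAAG (read by SOX factors) and CANNTG (the E-box, which is its own reverse complement).
Otoa: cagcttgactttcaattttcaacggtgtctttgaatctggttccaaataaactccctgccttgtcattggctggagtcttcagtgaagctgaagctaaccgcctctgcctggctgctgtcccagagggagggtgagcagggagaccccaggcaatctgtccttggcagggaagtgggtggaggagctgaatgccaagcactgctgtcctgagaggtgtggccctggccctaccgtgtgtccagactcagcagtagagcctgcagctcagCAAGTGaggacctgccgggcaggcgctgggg
Otol1: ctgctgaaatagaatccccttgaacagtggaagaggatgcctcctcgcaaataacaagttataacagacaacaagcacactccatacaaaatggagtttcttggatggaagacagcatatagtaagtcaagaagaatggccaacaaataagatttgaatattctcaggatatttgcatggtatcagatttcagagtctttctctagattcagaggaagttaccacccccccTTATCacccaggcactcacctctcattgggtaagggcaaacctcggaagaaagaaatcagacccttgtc
Otog: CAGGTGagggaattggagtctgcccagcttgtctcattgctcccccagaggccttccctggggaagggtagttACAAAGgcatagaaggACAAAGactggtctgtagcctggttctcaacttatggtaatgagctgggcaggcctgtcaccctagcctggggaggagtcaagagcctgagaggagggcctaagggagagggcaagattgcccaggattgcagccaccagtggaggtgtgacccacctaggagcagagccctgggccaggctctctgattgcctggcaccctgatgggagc
The Otog window holds ACAAAG at positions 74 and 90, counted from 1 at its 5′ end, and an E-box at position 1. The Otol1 window holds GATAA on the other strand at position 232, and the Otoa window an E-box at position 270. Of all 32851 RefSeq windows of the same length, 25.4% hold GATAA, 18.7% hold ACAAAG and 72.3% hold CANNTG. These 3 windows differ in base composition, with 58.0% G and C for Otoa, 58.7% for Otog and 42.3% for Otol1 (median of all windows 52.7%), and hold 5, 0 and 2 CpG (median 7). A match in a window is a description of its letters and not a binding site.

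The first role is attachment of the gel. Otoa encodes otoancorin, which anchors the tectorial membrane to the spiral limbus and the vestibular gels to the epithelium below them. The gene lies on chromosome 7 between 121081650 and 121163097, plus strand (mm10, GENCODE M21, as for all positions below). Otoa read 9.40 FPKM in vestibular 1, 3.61 in vestibular 2, 29.0 in cochlear 1 and 129 in cochlear 2. Both cochlear libraries were higher than both vestibular libraries, but the cochlear pair itself differed 4.42-fold. Its log2 difference was -3.17 (SE 0.89, 95% interval -5.72 to -0.62, limma p 0.0267, adjusted p 0.230), and 71 of the genes tested had a larger difference in that direction. In cochlear 2, 97.7% of all measured genes had a lower FPKM than Otoa, against 56.7% in vestibular 2.

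**Figure D3:**
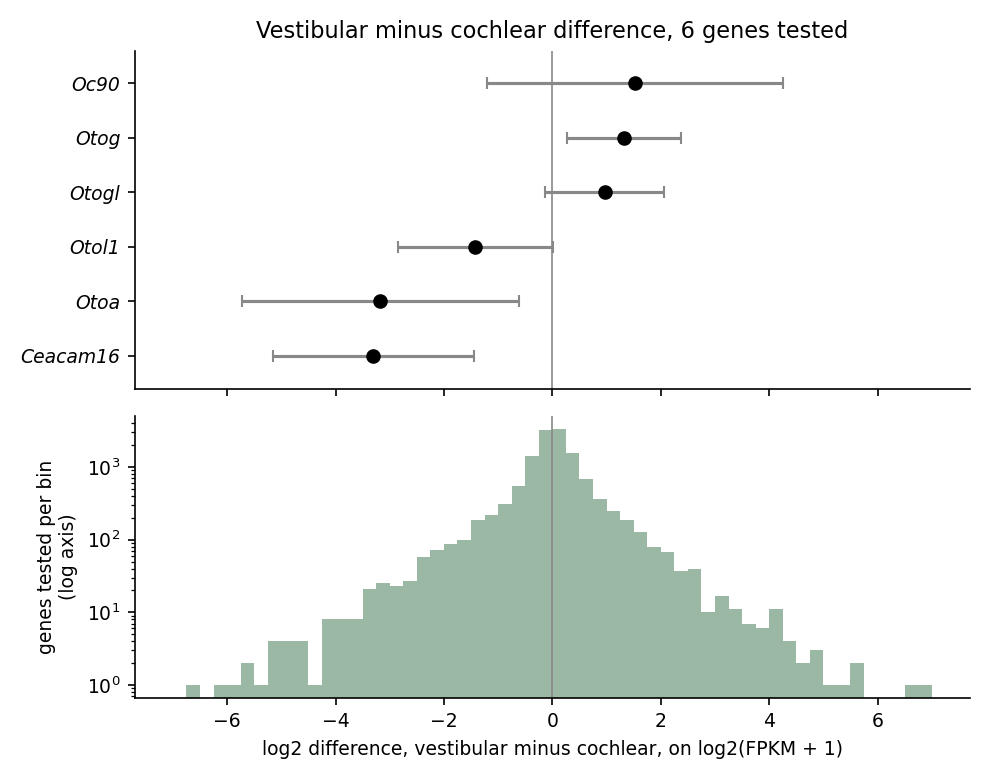
The upper panel shows the log2 difference (vestibular minus cochlear) of the 6 genes tested with 95% intervals from limma. The lower panel shows the same difference for all 13200 genes tested on a log count axis, where Ceacam16 at -3.30 and Otoa at -3.17 lie in the sparse left tail.

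Ceacam16 encodes a secreted immunoglobulin-domain protein that binds alpha-tectorin and helps to form the striated sheet of the tectorial membrane. It lies on chromosome 7 between 19852097 and 19861299, minus strand. Its levels were 0.294 and 0.858 FPKM in the vestibular pair and 26.1 and 7.65 in the cochlear pair, which correspond to 4, 13, 403 and 121 inferred fragments. The vestibular values lay far below both cochlear values, and cochlear 1 was 3.41-fold above cochlear 2. Its log2 difference of -3.30 (SE 0.65, 95% interval -5.16 to -1.44, limma p 0.00858, adjusted p 0.171) was the largest in size among the 6 genes tested. Only 57 of the genes tested had a larger difference in that direction. On the opposite strand the protein-coding gene Gm19345 overlaps Ceacam16 and read 0.133, 0.238, 5.37 and 2.28 FPKM in that library order. Fragments of this pair cannot be told apart without strand, and whether the counting used it is not stated in the sources at hand.

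Otoa and Ceacam16 were both high in cochlear cultures but in opposite libraries. The FPKM of Otoa was 1.11 times that of Ceacam16 in cochlear 1 and 16.8 times in cochlear 2. In the vestibular libraries it was 32.0 and 4.21 times, where Ceacam16 rests on few fragments. Leaving out cochlear 2 moved the difference of Otoa to -2.12 and that of Ceacam16 to -4.13, and leaving out cochlear 1 moved them to -4.22 and -2.48.

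The tectorins are the filament-forming proteins of the striated sheet, and both carry a zona pellucida domain. Tecta, for alpha-tectorin, lies on chromosome 9 between 42329619 and 42399929, minus strand, and stood at 1.82 and 0.555 FPKM in the vestibular pair and 0.272 and 0.544 in the cochlear pair. Vestibular 1 was above the other 3 libraries, and vestibular 2 and cochlear 2 were nearly level, with 42 and 43 inferred fragments. Tectb, for beta-tectorin, lies on chromosome 19 between 55180733 and 55196313, plus strand, and stood at 0.125, 0.411, 0.513 and 0 FPKM in vestibular 1 and 2 and cochlear 1 and 2. Those values correspond to 3, 11, 14 and 0 inferred fragments. Vestibular 2 and cochlear 1 had the higher values, so the groups overlapped, and the 0 in cochlear 2 allows up to 0.132 FPKM by the exact Poisson interval. Neither tectorin reached a mean FPKM of 1. Fitted without the filter on low values, their log2 differences were 0.58 (95% interval -0.43 to 1.59) for Tecta and 0.03 (-0.72 to 0.79) for Tectb, with limma adjusted p of 0.497 and 0.960.

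Zpld1 encodes a further zona pellucida domain protein, described in fish and mouse as a component of the cupula. It lies on chromosome 16 between 55225175 and 55297986, minus strand. It stood at 0.132 and 0.910 FPKM in the vestibular pair and 2.67 and 0.0758 in the cochlear pair, with 3, 23, 69 and 2 inferred fragments. The highest and the lowest of the 4 values were both cochlear, 35.3-fold apart. In cochlear 1 the exact Poisson interval ran from 2.08 to 3.38 FPKM, above the upper bound of the other 3 libraries, which reached at most 1.36. Without the filter its log2 difference was -0.44 (95% interval -2.53 to 1.66, limma adjusted p 0.777).

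Otogelin and otogelin-like, from Otog and Otogl, are large mucin-like proteins with von Willebrand D domains that form filaments in every kind of gel. Otog lies on chromosome 7 between 46240987 and 46311434, plus strand and Otogl on chromosome 10 between 107760531 and 107912134, minus strand. Otog stood at 4.05 and 3.61 FPKM in the vestibular pair and 1.62 and 0.431 in the cochlear pair. The vestibular pair lay close together (1.12-fold apart) and above both cochlear libraries, which were 3.77-fold apart. Its log2 difference was 1.32 (SE 0.37, 95% interval 0.26 to 2.37, limma p 0.0263, adjusted p 0.229). Otogl stood at 0.958 and 2.53 FPKM in the vestibular pair and 0.286 and 0.413 in the cochlear pair. Here the spread lay within the vestibular pair, 2.64-fold apart, and both again exceeded both cochlear libraries. Its log2 difference was 0.96 (SE 0.38, 95% interval -0.14 to 2.07, limma p 0.0712, adjusted p 0.307).

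The otoconial proteins did not follow one another. Oc90 encodes otoconin-90, the main soluble protein of mammalian otoconia, which resembles secreted phospholipase A2. It lies on chromosome 15 between 65876053 and 65912397, minus strand. It stood at 7.77 FPKM in vestibular 1, and at 0.533, 0.116 and 0.453 in vestibular 2, cochlear 1 and cochlear 2, with 118, 9, 2 and 8 inferred fragments. Vestibular 1 was 14.6-fold above vestibular 2, and vestibular 2 and cochlear 2 did not differ beyond counting error, with Poisson intervals of 0.244 to 1.01 and 0.196 to 0.894 FPKM. The log2 difference of 1.53 (SE 0.96, 95% interval -1.21 to 4.26, limma adjusted p 0.457) rested on vestibular 1, since without it the difference was 0.27.

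Otol1 encodes otolin-1, a collagen-like protein with a C1q domain that forms a scaffold in otoconia and in the gel under them. It lies on chromosome 3 between 70007613 and 70028708, plus strand. Its levels were 9.06 and 5.83 FPKM in the vestibular pair and 13.6 and 32.7 in the cochlear pair, with 169, 121, 288 and 708 inferred fragments. All 4 libraries held this gene at a level above 62.2% or more of all genes, and the cochlear libraries were the higher ones. Its log2 difference was -1.42 (SE 0.50, 95% interval -2.85 to 0.01, limma p 0.0507, adjusted p 0.276). The FPKM of Otol1 was 1.17 times that of Oc90 in vestibular 1 and 117 times in cochlear 1, so transcripts of both otoconial proteins were at a like level in vestibular 1 only.

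Replicate spread was wide for the 9 genes. Over all genes tested the median absolute log2 difference was 0.22 within the vestibular pair and 0.17 within the cochlear pair. Among the 6 genes tested, Otog within the vestibular pair (0.13) and Otogl within the cochlear pair (0.14) were under those medians. The largest values were 2.52 for Oc90 within the vestibular pair and 2.11 for Otoa within the cochlear pair.

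Profiles over the 4 libraries were compared by the root mean square difference of log2(FPKM + 1), centred on each gene's mean. Among pairs of the 6 genes tested, Otog and Otogl were nearest (0.53), then Otoa and Otol1 (0.96) and Oc90 and Otog (0.96), and Ceacam16 and Oc90 were farthest (2.74). Over all genes tested, the nearest to Otoa were Serpinb1a (0.34), Lect1 (0.36) and Cpm (0.36). Serpinb1a, a protease inhibitor gene, stood at 6.80, 3.58, 18.1 and 66.1 FPKM in that library order (vestibular 1 and 2, cochlear 1 and 2), and Lect1, for the cartilage protein chondromodulin, at 123, 33.7, 327 and 853. Nearest to Ceacam16 were Bcl2l15 (0.28), Sgpp2 (0.50) and Cldn14 (0.51). Of these, Cldn14, a claudin gene mutated in inherited deafness, was listed at 0 in vestibular 1 and stood at 0.0890, 11.6 and 9.31 FPKM in the other 3.

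Near Otol1 lay Mfi2 (0.05), Gm13889 (0.07) and Akap5 (0.09), and near Otog lay Fam129a (0.07), Cnrip1 (0.08) and 5031414D18Rik (0.08). The nearest to Otogl was Pou3f4 (0.04), a transcription factor gene of the otic mesenchyme, at 73.7, 124, 46.4 and 49.6 FPKM, followed by Fstl1 (0.05) and Nap1l2 (0.05). Oc90 was nearest to Gfra2 (0.08), a receptor gene for the neurotrophic factor neurturin, which stood at 8.22, 0.575, 0.125 and 0.330 FPKM. Snora24 (0.19) and Mlc1 (0.21) came next, both listed at 0 outside vestibular 1. These likenesses run over 4 libraries only and are descriptions. The scale understates the change of low genes, so near profiles can have unlike fold changes. Otogl ran from 0.286 to 2.53 FPKM, 8.84-fold, while Pou3f4 ran only from 46.4 to 124.

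The other genes of the gels, of otoconia and of the protein families of the 9 were taken as 9 lists with 88 distinct genes in the files, of which 37 were tested. Limma called 0 of these 37. An unadjusted p under 0.05 was found in 15, 9 with a higher vestibular and 6 with a higher cochlear mean, which is 40.5% of the 37 against 18.2% of all genes tested. Their median log2 difference was 0.69, and that of all genes tested 0.01. The lists were written with earlier results of these data known, so these values are descriptions and not a test of enrichment.

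**Figure D4:**
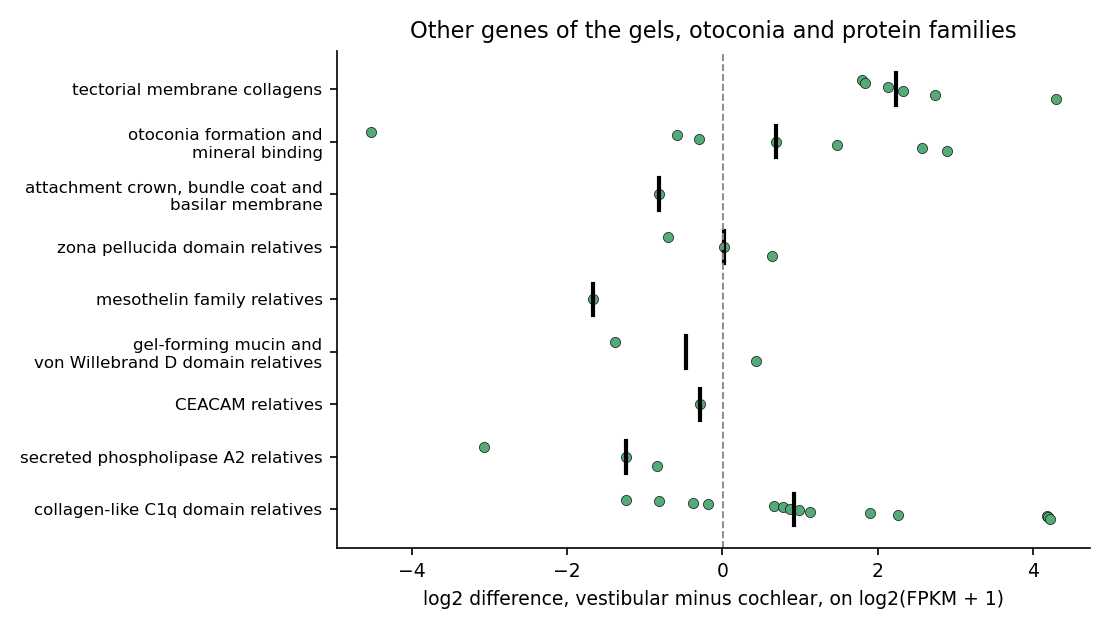
Points are the log2 differences (vestibular minus cochlear) of the tested genes of each list, black bars the list medians, and the dashed line the median of all genes tested (0.01). All 6 tectorial membrane collagens lie to the right, all 3 secreted phospholipase A2 genes to the left, and the otoconia list spreads from -4.52 to 2.89.

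Collagens of the tectorial membrane core had positive differences in 6 of 6 genes (median 2.24), 1 of them with an unadjusted p under 0.05 in limma. Col2a1, for type II collagen, stood at 543 and 2365 FPKM in the vestibular pair and 83.9 and 38.5 in the cochlear pair (log2 difference 4.29, p 0.0100). Col9a3 stood at 33.7 and 663 versus 21.6 and 21.9 FPKM, Col9a1 at 74.8 and 621 versus 36.4 and 48.7, and Col11a1 at 96.6 and 546 versus 49.5 and 81.6. Vestibular 2 was the highest library in each of these 4. It was also the highest for Col9a2 and Col11a2, but their groups overlapped. Col9a2 stood at 14.2 and 124 versus 8.76 and 14.9 FPKM, and Col11a2 at 31.4 and 580 versus 25.8 and 35.3. These collagens are also the collagens of cartilage. The cartilage markers Acan and Chad were highest in vestibular 2 as well (7.52 and 17.3 FPKM there, at most 2.23 and 0.687 elsewhere). Comp was highest there too (0.849 FPKM), but Matn1 and Hapln1 were highest in vestibular 1 (0.992 and 0.151 FPKM). Lect1, for the cartilage protein chondromodulin, was lowest in vestibular 2, at 33.7 FPKM against 123, 327 and 853 elsewhere. The part of cartilage markers in the collagen values was not tested.

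In the otoconia list 4 of 7 tested genes had positive and 3 negative differences (median 0.69), and 4 had an unadjusted p under 0.05 in limma, 3 of them higher in vestibular cultures. Slc26a4, for the anion exchanger pendrin that sets endolymph composition, stood at 1.93 and 0.884 FPKM in the vestibular pair and 60.5 and 46.3 in the cochlear pair (log2 difference -4.52, SE 0.29, p 0.000166). Among mineral-binding matrix genes, Sparcl1 stood at 491 and 713 versus 99.5 and 98.5 FPKM, Sparc at 2235 and 5305 versus 1132 and 1347, and Spp1 at 4095 and 2598 versus 5377 and 4459. Cyba, a subunit gene of NADPH oxidases including the one needed for otoconia, stood at 200 and 159 versus 158 and 76.5 FPKM. Dmp1, also of this list, stood at 171 and 80.6 versus 15.0 and 15.0 FPKM, and Noxo1 at 3.04 and 4.64 versus 4.68 and 5.11. Otop1, a proton channel gene needed for otoconia, was low, at most 0.213 FPKM. Nox3, the catalytic subunit of the otoconial oxidase, was low as well, at most 0.476 FPKM. Strc, for stereocilin, which attaches hair bundles to the tectorial membrane, was at most 0.288 FPKM.

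Protein relatives of the 9 were measured beside them. Msln, for mesothelin, the relative of otoancorin, stood at 51.7 and 3.65 FPKM in the vestibular pair and 40.6 and 58.5 in the cochlear pair, and its groups overlapped, unlike those of Otoa. All 3 tested secreted phospholipase A2 genes, relatives of Oc90, were lower in both vestibular libraries (median -1.24), each with an unadjusted p under 0.05 in limma. Pla2g5 stood at 4.50 and 2.45 versus 31.7 and 40.3 FPKM (log2 difference -3.08), Pla2g12a at 12.8 and 11.3 versus 21.6 and 22.9, and Pla2g2d at 0.458 and 0.137 versus 2.42 and 1.71. Collagen-like C1q domain genes, relatives of Otol1, had positive differences in 10 of 14 (median 0.93), 5 with an unadjusted p under 0.05. Among them Col8a1 stood at 657 and 1655 versus 240 and 324 FPKM, while Otol1 lay the other way. The largest differences of the list were those of the complement genes C1qa, C1qb and C1qc (4.22, 4.18 and 4.19), which are also macrophage markers. C1qa stood at 629 and 419 FPKM in the vestibular pair and 498 and 0.516 in the cochlear pair, so the groups of these 3 genes overlapped and only cochlear 2 was low, as it was for the macrophage markers as a list; their part in the count was not tested.

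Further relatives were mostly low. Of 12 zona pellucida domain genes 3 were tested, and Eng and Tgfbr3, accessory receptors of TGF-beta signalling, overlapped between groups at 23.7 and 76.3 versus 23.4 and 31.4 FPKM and 14.7 and 18.7 versus 16.5 and 16.2. Tgfbr3l had an unadjusted p under 0.05 and stood at 2.42 and 2.06 versus 4.58 and 3.95 FPKM. Of 11 mucin and von Willebrand domain genes 2 were tested, Muc2 at 0.626 and 0.347 versus 1.70 and 4.50 FPKM (limma p 0.0377) and Bmper at 1.63 and 4.55 versus 1.39 and 2.36. Ceacam1 was the tested gene of 7 CEACAM relatives, at 1.06 and 0.977 versus 1.50 and 1.42 FPKM. Emilin2, an elastin microfibril interface gene found in the basilar membrane, was low in vestibular 2 alone, at 7.53 FPKM against 27.1, 25.6 and 26.9.

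Markers of cell types also differed between libraries, and their part in the results was not tested. Epithelial markers had negative differences in 18 of 18, and their summed FPKM was 1250 and 160 in the vestibular pair and 2449 and 3018 in the cochlear pair, with none at 0 in all libraries. Each tested gene was divided by each of these 18 markers in turn, a scale chosen after the values had been seen. Otog, Otogl and Oc90 kept both vestibular libraries above both cochlear ones with 18 of 18 markers. For 17 of the 18 that order was fixed in advance, so the count is no test. Those markers were lower in both vestibular libraries, where these genes were already higher. Otoa kept the cochlear libraries higher with 4 of 18 and Ceacam16 with 3 of 18, and with the other markers their groups overlapped. For Otol1 the groups overlapped with 16 of 18, and with the other 2 the vestibular libraries were the higher ones. As a share of the summed epithelial markers, Otoa read 0.752% and 2.26% in the vestibular pair and 1.19% and 4.26% in the cochlear pair, so its groups overlapped. Otog read 0.324% and 2.26% versus 0.0663% and 0.0143% of that sum, with no overlap. That order too was fixed in advance, since the sum was lower in both vestibular libraries.

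**Figure D5:**
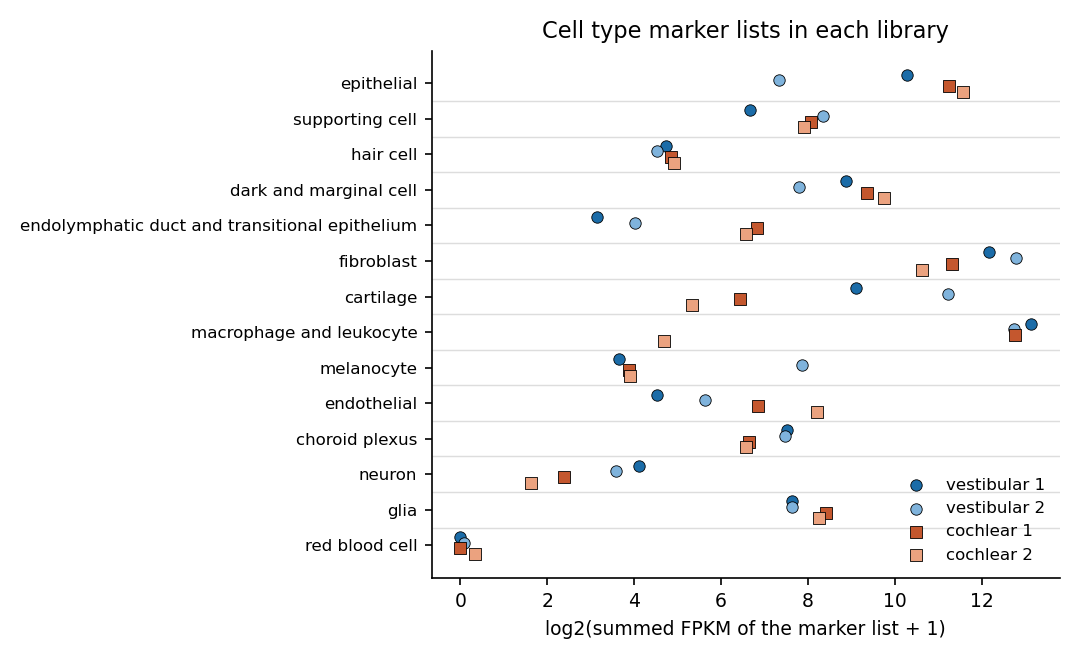
Points show log2(summed FPKM + 1) of each marker list in each library, circles for vestibular and squares for cochlear. Epithelial markers are lowest in vestibular 2, and macrophage and leukocyte markers are lowest in cochlear 2. Cartilage and melanocyte markers are highest in vestibular 2, where Col2a1 makes up 2365 of the 2391 FPKM of the cartilage list. The summed level of hair cell markers lies between 22.1 and 29.2 FPKM in all 4 libraries.

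Fibroblast markers lay opposite to the epithelial ones, with 12 of 12 positive and summed FPKM of 4632 and 7125 in the vestibular pair and 2572 and 1574 in the cochlear pair. Macrophage and leukocyte markers were nearly missing from cochlear 2, at a summed 24.8 FPKM against 6879 to 9037 in the other 3, and melanocyte markers summed to 233 FPKM in vestibular 2 and at most 14.0 elsewhere. Of the hair cell markers, 4 of 16 were tested and the list summed to between 22.1 and 29.2 FPKM, most of it from Myo7a, Espn and Ush1c, which are also expressed outside hair cells. Pou4f3, Gfi1 and Otof, which mark hair cells more narrowly, were low and did not overlap between groups. Pou4f3 read 1.005 and 0.703 FPKM in the vestibular pair and 0.0984 and 0.0962 in the cochlear pair, Gfi1 0.472 and 0.925 versus 0 and 0, and Otof 0.860 and 1.63 versus 0.215 and 0. All 3 lay under the filter on low values and were not tested. Groups did not overlap in 49.6% of all genes above 0 in at least 1 library. Other low markers of the list went either way. Tmc1 read 0.244 and 0.512 versus 0.0239 and 0 FPKM, and Calb2 0.0856 and 0.308 versus 0.453 and 0.442. Slc17a8 overlapped (0.419 and 0.688 versus 0.174 and 0.467 FPKM), and Ocm was above 0 only in cochlear 1 (1.23 FPKM). Supporting cell markers split 4 and 4, with Gata3 at 1.53 and 5.70 FPKM in the vestibular pair and 50.0 and 40.9 in the cochlear pair and Sox10 at 37.7 and 15.5 versus 108 and 100. The connexin genes Gjb2, at 19.9 and 231 versus 77.7 and 74.5 FPKM, and Gjb6, at 2.32 and 39.8 versus 3.45 and 2.42, overlapped between groups and were highest in vestibular 2. Lmx1a, a transcription factor gene of non-sensory otic epithelium, stood at 4.28 and 0.842 versus 52.1 and 47.0 FPKM.

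The choroid plexus markers included Ttr, for transthyretin, which stood at 77.9 FPKM in vestibular 1, was listed at 0 in vestibular 2 and stood at 2.19 and 3.03 in the cochlear libraries. Vestibular 1 was thus the highest library for both Ttr and Oc90. Otx2, of the same list, stood at 4.11, 0, 0.821 and 2.53 FPKM. Folr1 and Kcne2, low genes of that list, were also highest in vestibular 1, at 0.572 and 1.06 FPKM. Aqp1, the highest gene of the list, did not peak there and stood at 98.8, 175, 93.1 and 85.0 FPKM. Neither did Clic6, at 0.148, 0.453, 1.98 and 2.17, nor Kl, at 0.0427, 0.403, 0.0188 and 0.0367. Red blood cell genes Hba-a1, Hba-a2 and Hbb-bs were listed at 0 in all 4 libraries, as was the endothelial gene Cldn5. Other endothelial markers were measured above 0. Emcn stood at 14.5 and 34.3 FPKM in the vestibular pair and 112 and 287 in the cochlear pair. Cdh5 lay the other way, at 0.915 and 10.7 versus 0.293 and 0.0955 FPKM, and Tek and Kdr overlapped between groups. Pecam1 and Tie1 were low, at most 0.155 and 0.0769 FPKM. An exact 0 in these files can be a failed estimate, since the ribosomal protein gene Rpl26 is also listed at 0 throughout.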

How the data were processed

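The authors deposited 1 FPKM value per gene symbol and library, per the file headers. Cuffdiff 2.2.1, TopHat2 2.1.1, SAMtools 0.1.18 and Bowtie2 2.2.8 were used on the mm10 build, per the submitters' processing notes. Per the labels' protocols, TRIzol RNA was made into stranded mRNA libraries. Settings, annotation and strand use are not stated there. FPKM totals ran from 479380 to 519122, and genes at 1 FPKM or more from 12644 to 13094.

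Values were taken as log2(FPKM + 1) and compared with limma 3.58.1 in R 4.3.3 (mean-variance trend, 2-sided, Benjamini-Hochberg over the 13200 genes averaging 1 FPKM or more). FPKM are not counts, so no count model was used. The fit was tested on simulated data. Relative depth came from the most common ratio of low values, and fragment numbers were the smallest whole numbers that met the tolerance at a value of 1 fragment, times transcript length, of 90 to 150. That step was added after the values had been seen.

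The 9 genes and all lists were chosen with earlier results of these data known. Named genes are the 9, up to 4 per list by mean FPKM, cell type markers listed at 0, and the 3 nearest profiles. Genes outside that rule were chosen for their position, role or direction with their values known. They were Gm19345, Otop1, Nox3, Noxo1, Dmp1, Pou4f3, Gfi1, Otof, Tmc1, Calb2, Slc17a8, Ocm, Matn1, Hapln1 and Rpl26. Also chosen in this way were Folr1, Kcne2, Kl, Pecam1, Tie1, Sox2, Jag1, Col9a2 and Col11a2. Alternatives were another pseudocount, filter, scaling, variance trend, replicate block and leaving out each library.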

Additional observations from a re-analysis of the deposited data

How the results depend on the processing

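All 6 tested genes of the 9 kept the direction of their difference under every alternative that gave them a value (69 values from 12 alternatives). For most alternatives this was fixed in advance, because the groups of these 6 genes did not overlap. Only quantile normalization could have reversed a direction. Scaling to the same total could not, because the FPKM totals differed too little (479380 to 519122) to make these groups overlap. None of the 6 passed the limma threshold in any alternative that kept every library. Without any one library the log2 difference ran from -4.22 to -2.12 for Otoa, from -4.13 to -2.48 for Ceacam16, from -2.02 to -0.82 for Otol1, from 0.88 to 1.75 for Otog, from 0.54 to 1.39 for Otogl and from 0.27 to 2.78 for Oc90. Otog, Otogl and Oc90 have no value at a mean FPKM of at least 5. A pseudocount of 0.1 gave -4.54 for Ceacam16, 2.04 for Otog, 1.91 for Otogl and 2.69 for Oc90.

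The count of genes past the threshold, 4 in the report and all higher in cochlear cultures, was 2 with no filter and 0 on leaving out any single library, with 1018 to 2724 genes at an unadjusted p under 0.05 in limma. Scaling each library to the same total gave 1 call with a higher vestibular mean and 4 with a higher cochlear mean. The labels number the libraries 1 and 2 in each group. With the replicate number as a block the count was 0, with 1887 genes at an unadjusted p under 0.05 in limma. Deviations of same-numbered libraries from their group means had an r of 0.0432 across genes. With 2 libraries a group that value cannot decide whether equal numbers mark a shared batch, which the labels do not state. The causes were not tested. A lone library was taken to vary as the opposite group did, and few fragments limit Tectb, Zpld1 and Oc90.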
